A study of Ambystoma mexicanum with 9 samples.

Results

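The factors described here mostly carry a ribosome through the start and the elongation steps of protein synthesis, and some of them hold these steps back. They are the 90 probe sets, of 20035 tested on an axolotl array, whose single gene symbol begins with EIF (eukaryotic initiation factor) or EEF (eukaryotic elongation factor). These probe sets stand for 56 of the 8639 genes so named on the array, and 18 of the genes have more than 1 probe set. Expression was measured on 9 Affymetrix arrays of axolotl (Ambystoma mexicanum) spinal cord tissue, in 3 groups of 3 arrays, with the cord of 10 animals pooled for each array. The 1dpiT group was taken 1 day after injection of ivermectin, which in nerve cells opens chloride channels gated by glycine. The 1dpi group was taken 1 day after injury, and the 0dpi group was uninjured. All animals were described as 2–3 cm long. According to the series text, ivermectin or water was put into the central canal and a piece of cord was then cut out. The sample labels themselves name no injection for 1dpi, name a crush as its injury, and name no injury for 1dpiT. The dissected tissue was described as cord together with cells around it.

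In animal cells, the initiation factor EIF2 brings the first methionyl-tRNA to the small ribosomal subunit, EIF3 organises that subunit, and the EIF4 factors bind the cap of the mRNA and unwind its leader. Kinases of the EIF2AK family phosphorylate EIF2 under stress and thereby slow most initiation, while proteins that bind EIF4E hold back cap-dependent initiation until the mTOR pathway releases them. Elongation factors EEF1 and EEF2 then deliver each aminoacyl-tRNA and move the ribosome along the message. These roles are known from yeast and mammals, and most of the proteins are needed in every cell.

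The values are log2 signals. A difference is a difference in log2 signal between group means, given with its standard error (SE, n = 3 arrays per group), and it was called when limma's adjusted p was below 0.05. Because all arrays had been brought to 1 distribution, a signal only has meaning next to the rest of its array. The control transcripts with poly-A tails, which Affymetrix kits supply to be added to each RNA in a fixed amount, were lower in 1dpiT than in 1dpi by 0.65 and higher in 1dpi than in 0dpi by 0.55. Centring each array on these spike-ins therefore adds 0.65 to every difference of 1dpiT minus 1dpi and takes 0.55 from every difference of 1dpi minus 0dpi. All directions below are for the deposited scale, and the counts on the spike-in scale stand beside those of each group of factors. Shares over all probe sets were counted for the main limma fit on the deposited scale, and not for other scales or fits. Since the spike-in shift is the same for every probe set, counts on that scale alone show no trait of these factors.

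The members were mostly bright. Of the 90 probe sets, 76 lay above the median of all probe sets in mean signal, and all 90 lay above 3.47, the mean of the brightest negative control. The 1dpi arrays stood apart from the others over all probe sets. Their correlation with 1dpiT arrays was 0.967 to 0.968 and with 0dpi arrays 0.971 to 0.972, whereas 1dpiT and 0dpi arrays correlated at 0.996 to 0.997. Markers of other cells also differed between the groups, and those of skeletal muscle and dividing cells moved with this split. All 8 skeletal muscle markers were lower in 1dpiT than in 1dpi, and their mean signal was 9.47 to 9.51 in 1dpiT, 11.91 to 11.94 in 1dpi and 9.67 to 9.74 in 0dpi. All 6 markers of dividing cells were higher in 1dpiT than in 1dpi, with mean signals of 9.32 to 9.40 in 1dpiT, 7.14 to 7.19 in 1dpi and 9.06 to 9.09 in 0dpi. Of the neuronal markers 8 of 9 were on the array under that name, and 5 were lower and 1 higher in 1dpiT than in 1dpi, with mean signals of 6.82 to 6.86 in 1dpiT, 7.37 to 7.40 in 1dpi and 6.64 to 6.68 in 0dpi. Of the erythrocyte markers 3 of 4 measured were lower in 1dpiT than in 1dpi, of the leukocyte markers 4 of 6 were lower and 1 higher, and of the ependymoglial markers 3 of 4 were lower and 1 higher. The mean signal of the leukocyte markers was 7.41 to 7.51 in 1dpiT, 7.92 to 7.96 in 1dpi and 7.76 to 7.82 in 0dpi. Against 0dpi, 3 of these 6 (CD74, CYBA and SPI1) were lower in 1dpiT and 0 higher, so this list did not follow the split. Of 4 epithelial markers 2 were higher and 1 lower, and of 2 myelin markers 1 was higher and 1 lower. GFAP, an intermediate filament of astrocytes and ependymoglia, was bright in every group, at 10.41 to 10.43 in 1dpiT, 10.58 to 10.61 in 1dpi and 9.92 to 10.03 in 0dpi. The mean of the epithelial markers was higher still, at 12.44 to 12.45 in 1dpiT, 12.27 to 12.29 in 1dpi and 12.48 to 12.53 in 0dpi. So was the muscle marker CKM, at 14.09 to 14.13 in 1dpiT, 14.27 to 14.29 in 1dpi and 14.03 to 14.11 in 0dpi. The part of all these cells in the results below was not tested. In such tissue samples fewer cells of a type and less RNA per cell cannot be told apart.

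Between 1dpiT and 1dpi, 31 of the 90 members were higher in 1dpiT, 15 were lower and 44 were not called. That is 51.1% called, against a background of 54% of all 20035 probe sets. By direction, 34.4% of the members were higher (background 29%) and 16.7% were lower (background 25%). The members' median difference was 0.03, and that of all probe sets was -0.00. The median size of a difference was 0.17 for the members and 0.22 for all probe sets. Among the 76 members above the median signal, 51.3% were called, against 71.8% of all probe sets above it. By direction, 35.5% of those 76 were higher and 15.8% lower, against 41% and 30.9% of all probe sets above the median. Differences of at least 2-fold with an unadjusted p below 0.05 were found for 3 members (3.33%), against 7.8% of all probe sets. With each array centred on its median, 28 members were higher and 21 lower. On the spike-in scale 84 were higher and 3 lower, and these 3 were the probe sets of 1 EEF1A1 transcript. The shares of all probe sets called on these other scales were not counted.

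Between 1dpi and 0dpi, 20 members were higher in 1dpi, 30 were lower and 40 were not called. The share called was 55.6%, against 52.9% of all probe sets. In 1dpi 22.2% of the members were higher (background 24.7%) and 33.3% were lower (background 28.2%). Among the 76 members above the median signal, 56.6% were called, against 70.5% of all probe sets above it. By direction, 21.1% of those 76 were higher and 35.5% lower, against 30.4% and 40.1% of all probe sets above the median. The median difference was -0.02, and 4 members (4.44%) met the 2-fold rule, against 7.12% of all probe sets. On the spike-in scale 3 members were higher and 82 lower.

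Between 1dpiT and 0dpi, 1 member was higher in 1dpiT and 0 were lower, which is 1.1% of the members against a background of 5.6%. The background was 2.26% by the higher and 3.34% by the lower direction. At an unadjusted p below 0.05, limma counted 6 members higher and 3 lower, or 10% of the members against 18.5% of all probe sets. None met the 2-fold rule, which 0.16% of all probe sets met. With probe sets below the median signal left out 4 members were higher, and with a variance trend and robust moderation 5 were higher and 1 lower. The median size of a difference was 0.05 for the members and 0.07 for all probe sets.

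The first of these comparisons shares the 1dpi arrays with the second, so their calls are not independent. In none of the 3 comparisons were 37 members called, which is 41.1% of them against 39.5% of all probe sets. The counts by role and by list below are to be read against the shares called over all probe sets. These were 54% in 1dpiT against 1dpi and 52.9% in 1dpi against 0dpi. Above the median signal they were 71.8% and 70.5%.

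**Figure D1:**
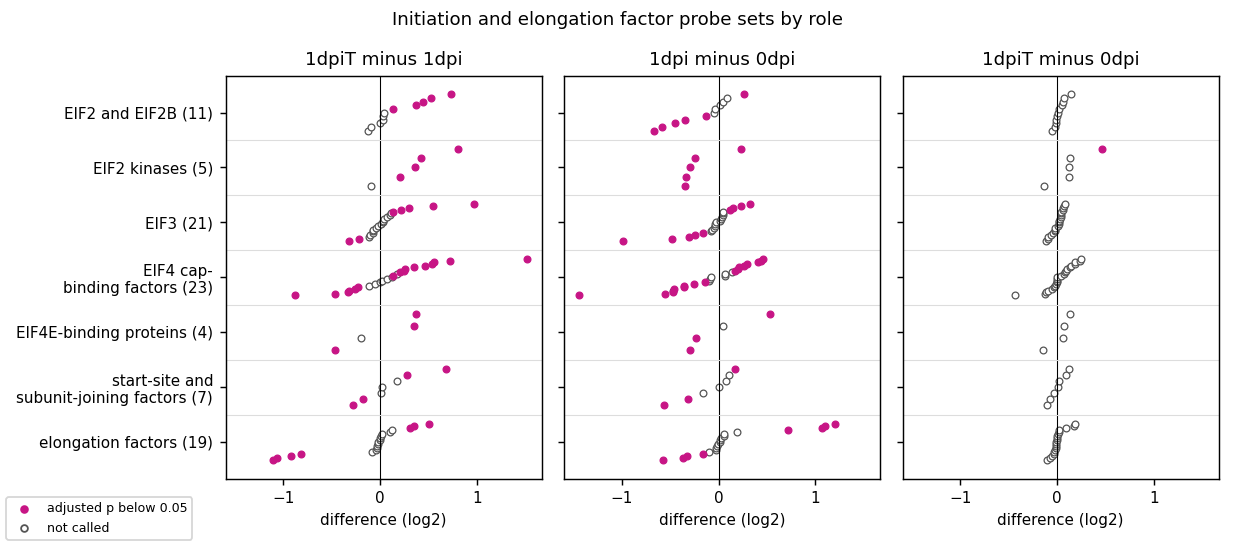
Each point is 1 of the 90 probe sets, placed by its difference in log2 signal on the horizontal axis and by the role of its gene on the vertical axis (number of probe sets in brackets); filled points had an adjusted p below 0.05. The points spread widely on both sides of 0 for 1dpiT minus 1dpi and for 1dpi minus 0dpi, and 1 of 90 is filled for 1dpiT minus 0dpi.

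EIF2, its exchange factor EIF2B and EIF2A were measured together by 11 probe sets of 9 genes. In 1dpiT 5 were higher than in 1dpi and 0 lower, and in 1dpi 1 was higher than in 0dpi and 5 lower. With median centring 4 were higher and 1 lower in 1dpiT than in 1dpi, and on the spike-in scale all 11 were higher. EIF2A, a separate factor that can bring initiator tRNA to the ribosome without GTP, had signals of 9.06, 8.90 and 8.82 in the 1dpiT arrays, 8.02, 8.30 and 8.24 in the 1dpi arrays, and 8.84, 8.85 and 8.89 in the 0dpi arrays. Every 1dpi array was below every other array, and 1dpiT overlapped 0dpi. The difference was 0.74 ± 0.08 for 1dpiT minus 1dpi (1.67-fold, adjusted p = 2.41e-05) and -0.67 ± 0.08 for 1dpi minus 0dpi (adjusted p = 5.32e-05).

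EIF2B4, the delta subunit of the exchange factor that reloads EIF2 with GTP, gave 9.74, 9.83 and 9.84 in 1dpiT, 9.30, 9.26 and 9.25 in 1dpi, and 9.86, 9.84 and 9.86 in 0dpi. The 1dpi arrays were again the low ones, without overlap. It was higher in 1dpiT than in 1dpi by 0.53 ± 0.05 (1.45-fold, adjusted p = 5.21e-06) and lower in 1dpi than in 0dpi, with a difference of -0.58 ± 0.05 (adjusted p = 2.95e-06). EIF2B1, the alpha subunit, went the other way. Its signals were 7.73, 7.74 and 7.77 in 1dpiT, 7.81, 7.80 and 8.00 in 1dpi, and 7.52, 7.61 and 7.69 in 0dpi. It was higher in 1dpi than in 0dpi by 0.27 ± 0.07 (adjusted p = 0.0072), and the difference of 1dpiT minus 1dpi was -0.13 ± 0.07 (adjusted p = 0.146). The epsilon subunit EIF2B5, which catalyses the exchange, had a dim probe set (axo09621-r_at) that was higher in 1dpiT than in 1dpi by 0.44 ± 0.09, and a brighter one (axo09620-r_at) with a difference of 0.00 ± 0.07. EIF2B2 and both probe sets of EIF2B3, the beta and gamma subunits, differed by -0.09 to 0.04 between 1dpiT and 1dpi and were not called in any comparison.

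Of the 3 subunits of EIF2 itself, the beta subunit EIF2S2 was the one with the widest separation. Its signal was 12.59 to 12.63 in 1dpiT, 12.21 to 12.28 in 1dpi and 12.55 to 12.66 in 0dpi, a difference of 0.37 ± 0.05 for 1dpiT minus 1dpi (adjusted p = 0.000113). EIF2S1, the alpha subunit on which the kinases act, had signals of 11.60, 11.60 and 11.61 in 1dpiT, 11.44, 11.47 and 11.51 in 1dpi, and 11.64, 11.57 and 11.59 in 0dpi. These groups did not overlap for 1dpiT and 1dpi, but the difference was small at 0.13 ± 0.05 (1.10-fold, adjusted p = 0.0311). The call was lost when 1dpi array 1 or 2 or any of the 1dpiT arrays was left out, with a highest adjusted p of 0.083. EIF2S3, the gamma subunit that binds GTP and the initiator tRNA, differed by 0.03 ± 0.04.

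The EIF2 kinases were measured by 5 probe sets of 3 genes, EIF2AK1, EIF2AK3 and EIF2AK4. Of these, 4 were higher in 1dpiT than in 1dpi and 0 lower, and all 5 were called between 1dpi and 0dpi, with 1 higher and 4 lower in 1dpi. The 4 lower became 2 without 0dpi array 3, 1dpi array 1 or 1dpi array 3, since the calls of EIF2AK1 axo05956-f_at and EIF2AK4 axo18121-r_at were lost there, and without some other arrays too (highest adjusted p = 0.126 and 0.0948). All 5 were higher in 1dpiT than in 1dpi on the spike-in scale. EIF2AK4 (GCN2), the kinase that senses uncharged tRNA when amino acids run short, gave 6.74, 6.76 and 6.84 in 1dpiT, 5.73, 6.09 and 6.11 in 1dpi, and 6.32, 6.27 and 6.37 in 0dpi with the probe set axo18122-r_at. The 3 groups lay apart from each other, with 1dpiT highest and 1dpi lowest. The difference of 1dpiT minus 1dpi was 0.80 ± 0.09 (1.75-fold, adjusted p = 3.14e-05), and that of 1dpi minus 0dpi was -0.34 ± 0.09 (adjusted p = 0.00951).

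This EIF2AK4 probe set was the 1 member called between 1dpiT and 0dpi, with a difference of 0.46 ± 0.09 (1.38-fold, adjusted p = 0.017). The call did not hold when 0dpi array 2, 1dpiT array 2 or 1dpiT array 3 was left out, where the adjusted p reached 0.0689. The second EIF2AK4 probe set (axo18121-r_at) was dimmer, with 4.68, 5.08 and 5.03 in 1dpiT, 4.54, 4.58 and 4.42 in 1dpi, and 4.71, 4.85 and 4.87 in 0dpi. There 1dpiT overlapped 0dpi, with a difference of 0.12 ± 0.10 (adjusted p = 0.595), while 1dpiT was higher than 1dpi by 0.42 ± 0.10 (adjusted p = 0.00465).

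EIF2AK1 (HRI), the kinase that responds to lack of heme, was higher in 1dpiT than in 1dpi with both of its probe sets. The first (axo05956-f_at) gave 6.23, 6.41 and 6.53 in 1dpiT, 6.07, 6.03 and 5.99 in 1dpi, and 6.23, 6.17 and 6.40 in 0dpi. The second (axo05957-r_at) gave 6.45, 6.46 and 6.61 in 1dpiT, 6.27, 6.26 and 6.36 in 1dpi, and 6.57, 6.65 and 6.69 in 0dpi. For both, the 1dpi arrays were the lowest of the 9. The differences of 1dpiT minus 1dpi were 0.36 ± 0.08 (adjusted p = 0.0042) and 0.21 ± 0.06 (adjusted p = 0.0147), and the second was lost without 1dpi array 2 or 1dpiT array 3 (highest adjusted p = 0.0575). Of the erythrocyte markers, whose cells depend most on heme, 3 of 4 were lower in 1dpiT than in 1dpi. Their mean signals were 5.90 in every 1dpiT array, 7.02 to 7.09 in 1dpi and 6.04 to 6.09 in 0dpi. Whether these markers bear on the EIF2AK1 differences was not tested. EIF2AK3 (PERK), the kinase of the endoplasmic reticulum, went the other way from the other two, with 8.67, 8.53 and 8.48 in 1dpiT, 8.57, 8.65 and 8.76 in 1dpi, and 8.41, 8.45 and 8.43 in 0dpi. It was higher in 1dpi than in 0dpi by 0.23 ± 0.07 (adjusted p = 0.014, lost without 1dpi array 3 at 0.0584), and 1dpiT overlapped 1dpi with a difference of -0.10 ± 0.07 (adjusted p = 0.238).

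**Figure D2:**
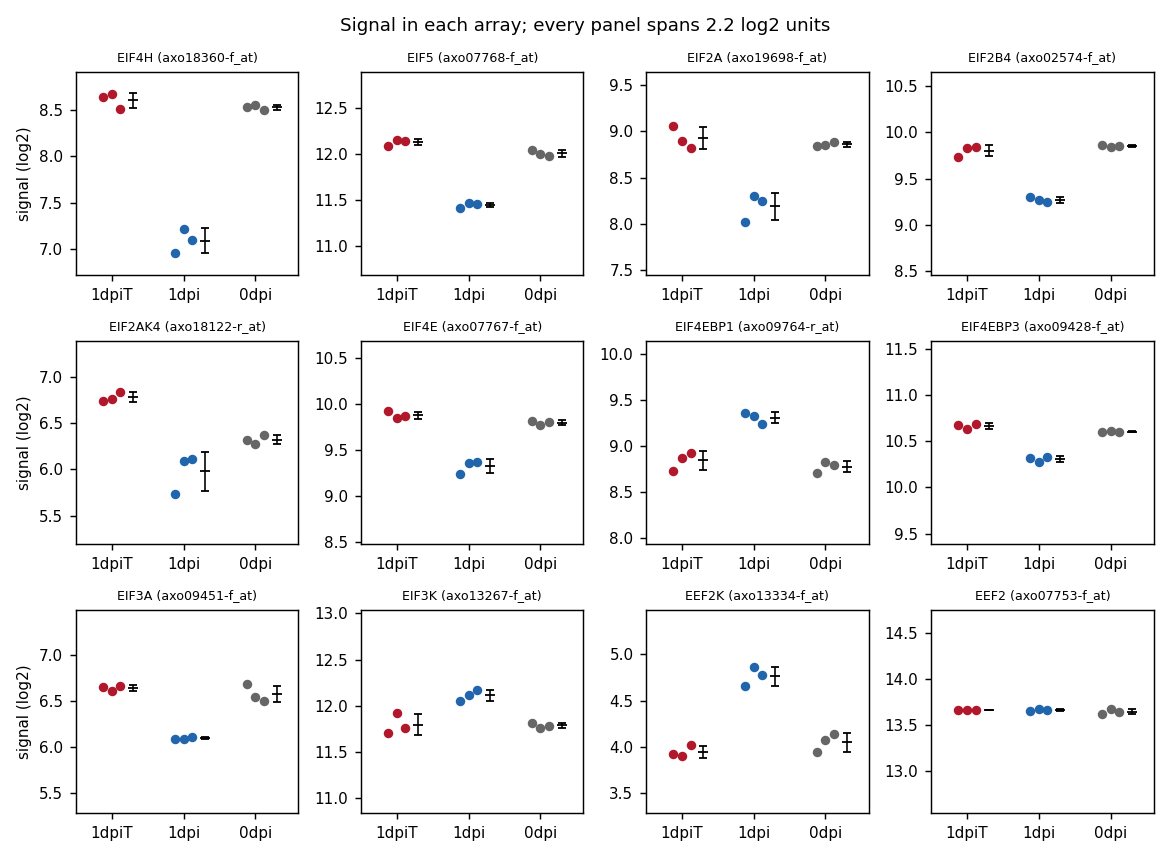
Log2 signal of 12 probe sets in the 9 arrays; points are arrays, the bar beside each group is its mean ± SD (n = 3), and every panel spans 2.2 log2 units. The 1dpi arrays sit lowest for EIF4H, EIF5, EIF2A, EIF2B4, EIF2AK4, EIF4E, EIF4EBP3 and EIF3A, highest for EIF4EBP1, EIF3K and EEF2K, and level with the others for EEF2.

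The EIF4 factors, which bind the cap and unwind the leader of an mRNA, had the widest spread of the initiation groups. Of 23 probe sets of 11 genes, 10 were higher in 1dpiT than in 1dpi and 6 lower. That is 69.6% called, against 54% of all probe sets and 71.8% of those above the median signal. Between 1dpi and 0dpi 8 were higher and 8 lower, and 5 were higher without 1dpi array 1. In 1dpiT against 1dpi, 21 of the 23 were higher and 0 lower on the spike-in scale. EIF4H, a cofactor that stimulates the EIF4A helicase, had the largest difference of all 90 members. Its signals were 8.64, 8.67 and 8.51 in 1dpiT, 6.95, 7.22 and 7.09 in 1dpi, and 8.54, 8.55 and 8.50 in 0dpi. The 1dpi arrays lay more than 1 log2 unit below all others, and 1dpiT and 0dpi overlapped. The difference was 1.52 ± 0.07 for 1dpiT minus 1dpi (2.87-fold, adjusted p = 4.63e-08). For 1dpi minus 0dpi it was -1.44 ± 0.07 (2.72-fold lower in 1dpi, adjusted p = 8.01e-08).

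EIF4E, the protein that binds the cap, had 2 probe sets that were called in opposite directions. The brighter one (axo07767-f_at) gave 9.92, 9.84 and 9.87 in 1dpiT, 9.24, 9.36 and 9.37 in 1dpi, and 9.82, 9.77 and 9.81 in 0dpi. It was higher in 1dpiT than in 1dpi by 0.55 ± 0.05 (1.47-fold, adjusted p = 7.89e-06), with 1dpi lowest and without overlap. The dimmer one (axo05866-f_at) gave 3.48, 3.67 and 3.75 in 1dpiT, 4.73, 4.28 and 4.53 in 1dpi, and 4.17, 3.95 and 4.08 in 0dpi, close to the 3.47 of the highest negative control. There 1dpi was highest, and the difference of 1dpiT minus 1dpi was -0.88 ± 0.11 (adjusted p = 7.85e-05). On the spike-in scale that difference was -0.23 and not called.

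The other cap-binding proteins were also mixed. EIF4E2 (4EHP), which binds the cap without promoting initiation, had 3 probe sets lower in 1dpiT than in 1dpi and 1 higher. The higher one (axo10508-f_at) was the brightest, with 9.85 to 9.92 in 1dpiT, 9.63 to 9.71 in 1dpi and 9.78 to 9.80 in 0dpi, and it differed by 0.21 ± 0.05 (adjusted p = 0.00379). The 3 lower ones differed by -0.26 ± 0.07 (axo10507-f_at), -0.33 ± 0.08 (axo10509-f_at) and -0.32 ± 0.05 (axo10510-f_s_at). In each of these the 1dpi arrays were highest, at 8.14 to 8.36, 7.07 to 7.24 and 6.85 to 7.00, against 7.91 to 8.02, 6.68 to 6.92 and 6.59 to 6.62 in 1dpiT. These 3 differences became 0.39, 0.32 and 0.33 on the spike-in scale. EIF4E3, another protein of the family, had 1 probe set that was higher in 1dpiT than in 1dpi by 0.35 ± 0.06 (adjusted p = 0.0005).

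The scaffolds that join cap-binding protein, helicase and EIF3 divided by gene. EIF4G1, the main scaffold, was higher in 1dpiT than in 1dpi with both probe sets. The bright one (axo02811-f_at) gave 10.94, 10.81 and 10.89 in 1dpiT, 10.43, 10.43 and 10.39 in 1dpi, and 10.86, 10.94 and 10.83 in 0dpi. Its difference was 0.46 ± 0.05 (adjusted p = 3.28e-05), with 1dpi lowest, and the dim one (axo02809-f_at) differed by 0.53 ± 0.13 (adjusted p = 0.00571). EIF4G3, a related scaffold, was dim and was lower in 1dpiT, at 4.54, 4.51 and 4.97, with every 1dpi array above these and the highest at 5.23. Its difference of -0.46 ± 0.15 (adjusted p = 0.0223) was lost without 1dpi array 1 or 3 or 1dpiT array 1 or 2 (highest adjusted p = 0.0826). EIF4G2 (DAP5), a relative without a binding site for EIF4E, was bright in axo07242-f_at with a difference of 0.12 ± 0.05 that was not called. Its dim probe set axo20526-f_at was higher in 1dpiT by 0.72 ± 0.19 (adjusted p = 0.00861), with 5.60, 6.11 and 5.31 in 1dpiT and 4.82, 5.08 and 4.97 in 1dpi.

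The helicases and their cofactor EIF4B differed by 0.26 or less in size between 1dpiT and 1dpi. Between 1dpi and 0dpi the differences reached 0.41 for EIF4A2 (axo07763-f_at) and -0.35 for EIF4B (axo07241-f_at), both called. EIF4A1, the main helicase of initiation, was called higher in 1dpiT than in 1dpi by 1 of 3 probe sets, axo07235-f_s_at, whose identifier marks probes shared between transcripts. It gave 12.17, 12.22 and 12.21 in 1dpiT, 11.96, 11.92 and 11.95 in 1dpi, and 12.23, 12.20 and 12.17 in 0dpi, a difference of 0.26 ± 0.04 (adjusted p = 0.0006). This probe set was lower in 1dpi than in 0dpi, with a difference of -0.26 ± 0.04, while axo07233-r_at was higher by 0.17 ± 0.05 (adjusted p = 0.0156), a call lost without 1dpi array 1 (0.0531). That second probe set had 8.51, 8.51 and 8.43 in 1dpiT, 8.51, 8.41 and 8.46 in 1dpi, and 8.29, 8.27 and 8.32 in 0dpi, so both groups with injury in the series text lay above the uninjured one. Its difference of 1dpiT minus 0dpi was 0.19 ± 0.05 (adjusted p = 0.0556). The third, axo07237-f_at, lay at 5.49 to 5.75 over all arrays and was not called in any comparison. EIF4A2, a close relative of EIF4A1, was lower in 1dpiT than in 1dpi with 1 of 4 probe sets, axo07763-f_at, with a difference of -0.23 ± 0.05. It had 9.75 to 9.85 in 1dpiT, 9.99 to 10.07 in 1dpi and 9.58 to 9.63 in 0dpi, with 1dpiT between the others. The other 3 EIF4A2 probe sets differed by -0.11 to 0.18 between 1dpiT and 1dpi and were not called. EIF4A3, which acts mainly in the complex left at exon junctions, differed by 0.14 ± 0.05, a call lost without 1dpi array 1 or 2 or 1dpiT array 1 or 2 (highest adjusted p = 0.103). EIF4B, a helicase cofactor like EIF4H, was higher with axo07241-f_at by 0.24 ± 0.06 and differed by -0.00 ± 0.07 with axo07240-f_at.

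The proteins that bind EIF4E were measured by 4 probe sets of 4 genes, of which 2 were higher in 1dpiT than in 1dpi and 1 lower (2 lower without 1dpi array 1). All 4 were higher there on the spike-in scale. EIF4EBP1, the best known inhibitor released by mTOR, had 8.73, 8.88 and 8.93 in 1dpiT, 9.36, 9.32 and 9.24 in 1dpi, and 8.71, 8.83 and 8.79 in 0dpi. The 1dpi arrays were the 3 highest, and the other groups overlapped. It was lower in 1dpiT than in 1dpi, with a difference of -0.46 ± 0.06 (1.38-fold lower, adjusted p = 0.000134), which became 0.19 on the spike-in scale. Between 1dpi and 0dpi it was higher in 1dpi by 0.53 ± 0.06 (1.44-fold, adjusted p = 5.33e-05).

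Its relatives went the opposite way. EIF4EBP2 had 7.63, 7.61 and 7.41 in 1dpiT, 7.07, 7.19 and 7.28 in 1dpi, and 7.33, 7.43 and 7.47 in 0dpi. EIF4EBP3 had 10.67, 10.63 and 10.69 in 1dpiT, 10.32, 10.28 and 10.33 in 1dpi, and 10.60, 10.61 and 10.60 in 0dpi. For both, the 1dpi arrays were the 3 lowest. The differences of 1dpiT minus 1dpi were 0.37 ± 0.08 (adjusted p = 0.00224) and 0.35 ± 0.04 (adjusted p = 5.79e-05). EIF4ENIF1 (4E-T), which carries EIF4E into the nucleus and to sites of mRNA decay, overlapped between 1dpiT and 1dpi, with a difference of -0.20 ± 0.10 (adjusted p = 0.12).

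EIF3, the largest initiation factor, was measured by 21 probe sets of 13 genes, and here most differences were small. In 1dpiT 5 were higher than in 1dpi, 2 were lower and 14 were not called, and between 1dpi and 0dpi 4 were higher and 5 lower. Median centring gave 4 higher and 5 lower in 1dpiT than in 1dpi, and the spike-in scale gave 21 higher. Bright probe sets of EIF3B, EIF3E, EIF3F, EIF3G, EIF3I, EIF3L and EIF3M had differences of -0.10 to 0.12 between 1dpiT and 1dpi and were not called there. The same held for EIF3CL, which in humans is a near copy of EIF3C, with 9.19, 9.28 and 9.25 in 1dpiT, 9.34, 9.31 and 9.30 in 1dpi, and 9.31, 9.38 and 9.38 in 0dpi. Its 1dpiT arrays were the lowest, with a difference of -0.08 ± 0.05 against 1dpi (adjusted p = 0.204) and of -0.12 ± 0.05 against 0dpi (adjusted p = 0.217).

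The calls between 1dpiT and 1dpi came from 5 genes. EIF3A, the subunit on which the complex is built, was higher in 1dpiT than in 1dpi with 3 of 5 probe sets. The probe set with the smallest p, axo09451-f_at, gave 6.65, 6.61 and 6.66 in 1dpiT, 6.09, 6.09 and 6.11 in 1dpi, and 6.68, 6.54 and 6.51 in 0dpi. The difference was 0.54 ± 0.05 (1.46-fold, adjusted p = 1.18e-05), with 1dpi lowest. A second, axo09449-f_at, differed by 0.97 ± 0.24 (adjusted p = 0.00651) and varied most of all members, with 8.22, 8.36 and 8.86 in 1dpiT, 7.63, 7.40 and 7.49 in 1dpi, and 9.08, 8.43 and 7.99 in 0dpi. The third, axo09452-f_at, differed by 0.21 ± 0.06. The brightest EIF3A probe set, axo09450-f_at, lay at 11.27 to 11.43 in all arrays and differed by -0.07 ± 0.06, and the dim axo09453-f_at differed by 0.03 ± 0.05.

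EIF3J, a loosely held subunit near the decoding site, had 10.78, 10.75 and 10.77 in 1dpiT, 10.45, 10.47 and 10.47 in 1dpi, and 10.65, 10.71 and 10.75 in 0dpi. EIF3J was higher in 1dpiT than in 1dpi by 0.30 ± 0.05 (1.23-fold, adjusted p = 0.000236), with 1dpi lowest. EIF3D, which can itself bind the cap of some mRNAs, differed by 0.14 ± 0.04, a call lost without 1dpi array 2 or 3 or 1dpiT array 2 (highest adjusted p = 0.0726). EIF3K and EIF3H were lower in 1dpiT. EIF3K had 11.70, 11.93 and 11.76 in 1dpiT, 12.06, 12.12 and 12.17 in 1dpi, and 11.82, 11.76 and 11.79 in 0dpi, a difference of -0.32 ± 0.06 for 1dpiT minus 1dpi (adjusted p = 0.00166). EIF3H was lower with 1 of 4 probe sets, axo09469-f_at, at a difference of -0.21 ± 0.05, and its other 3 differed by -0.11 to -0.02. Both lower differences became positive on the spike-in scale, at 0.33 for EIF3K and 0.44 for EIF3H.

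The factors of start-site choice and subunit joining were 7 probe sets of 7 genes, with 2 higher and 2 lower in 1dpiT than in 1dpi. All 7 were higher there on the spike-in scale. EIF5, which triggers GTP hydrolysis by EIF2 at the start codon, had the smallest p of the group, with 12.09, 12.15 and 12.14 in 1dpiT, 11.42, 11.46 and 11.45 in 1dpi, and 12.05, 12.00 and 11.98 in 0dpi. The 1dpi arrays were far below the others, and 1dpiT lay slightly above 0dpi. The difference was 0.68 ± 0.05 for 1dpiT minus 1dpi (1.60-fold, adjusted p = 6.36e-07), -0.56 ± 0.05 for 1dpi minus 0dpi (adjusted p = 2.91e-06) and 0.12 ± 0.05 for 1dpiT minus 0dpi (adjusted p = 0.196). EIF5B, the GTPase that joins the large subunit, had 9.39, 9.32 and 9.28 in 1dpiT, 9.03, 9.07 and 9.07 in 1dpi, and 9.35, 9.38 and 9.37 in 0dpi. It was higher in 1dpiT than in 1dpi by 0.28 ± 0.05 (adjusted p = 0.000521), with 1dpi lowest.

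The 2 lower ones were EIF1AD, a protein with a domain like that of EIF1A, at -0.28 ± 0.05, and EIF1B, a relative of EIF1, at -0.18 ± 0.04. They became 0.37 and 0.47 on the spike-in scale. EIF1, which keeps the scanning ribosome selective for the start codon, lay at 13.18 to 13.23 in all 9 arrays and differed by 0.01 ± 0.04. EIF1AX, its partner in scanning, differed by 0.02 ± 0.05. EIF6, which keeps the large subunit from joining too early, had 10.52 to 10.74 in 1dpiT and 10.38 to 10.51 in 1dpi and missed the threshold (0.17 ± 0.07, adjusted p = 0.0506).

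Elongation factors were measured by 19 probe sets of 9 genes. In 1dpiT 3 were higher than in 1dpi, 4 lower and 12 not called, and in 1dpi 4 were higher than in 0dpi and 4 lower. In 1dpiT against 1dpi, 15 were higher and 3 lower on the spike-in scale. The 4 lower ones were 3 probe sets of EEF1A1 and the 1 of EEF2K, and the 3 higher ones were all of EEF1G. EEF1A1, which delivers aminoacyl-tRNA to the ribosome, was measured on 2 array transcripts with a probe set each at the 5′ end, in the middle and at the 3′ end.

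On transcript axo07214, 1dpi was the highest group at every position. The 5′ probe set gave 6.52, 6.37 and 6.28 in 1dpiT, 7.39, 7.57 and 7.41 in 1dpi, and 6.35, 6.45 and 6.37 in 0dpi. The middle one gave 6.99, 7.11 and 7.01 in 1dpiT, 8.14, 8.15 and 8.13 in 1dpi, and 7.00, 6.84 and 6.98 in 0dpi. The 3′ one gave 7.94, 8.26 and 8.11 in 1dpiT, 8.99, 9.01 and 9.06 in 1dpi, and 7.89, 7.79 and 8.09 in 0dpi. At each position the 1dpi arrays lay above all others and 1dpiT overlapped 0dpi. The differences of 1dpiT minus 1dpi were -1.07 ± 0.07 at the 5′ end (adjusted p = 6.79e-07), -1.10 ± 0.06 in the middle (2.15-fold lower, adjusted p = 8.72e-08) and -0.92 ± 0.09 at the 3′ end (adjusted p = 1.19e-05). In 1dpi against 0dpi they were 1.07 ± 0.07, 1.20 ± 0.06 and 1.10 ± 0.09. On the spike-in scale the differences of 1dpiT minus 1dpi were -0.42, -0.46 and -0.27. The skeletal muscle markers named above moved in the same direction as this transcript in both comparisons. So did 5 of 8 neuronal, 3 of 4 erythrocyte, 3 of 4 ependymoglial, 3 of 6 leukocyte and 1 of 2 myelin markers. All 6 markers of dividing cells moved the opposite way, as did 2 of 4 epithelial, 1 of 6 leukocyte and 1 of 2 myelin markers. The part of any of these cells in the difference was not tested.

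On transcript axo07215 the same gene symbol showed no such pattern. Its 5′ probe set lay at 13.77 to 13.82, its middle one at 13.76 to 13.84 and its 3′ one at 14.34 to 14.40 over all 9 arrays. The differences of 1dpiT minus 1dpi were -0.00 ± 0.04, -0.02 ± 0.04 and 0.02 ± 0.04, and none was called in any comparison. These signals were near the top of the scale, which reached 14.36 to 14.55 on the arrays, so a difference could be compressed there. The 3′ minus 5′ signal of axo07215, a sign of RNA integrity, was 0.58 ± 0.02 in 1dpiT, 0.56 ± 0.02 in 1dpi and 0.57 ± 0.01 in 0dpi (SD, n = 3 each). Signals so near the top could compress this value too. For axo07214 it was 1.71 ± 0.25 in 1dpiT, 1.56 ± 0.11 in 1dpi and 1.53 ± 0.19 in 0dpi (SD, n = 3 each), so the groups overlapped.

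**Figure D3:**
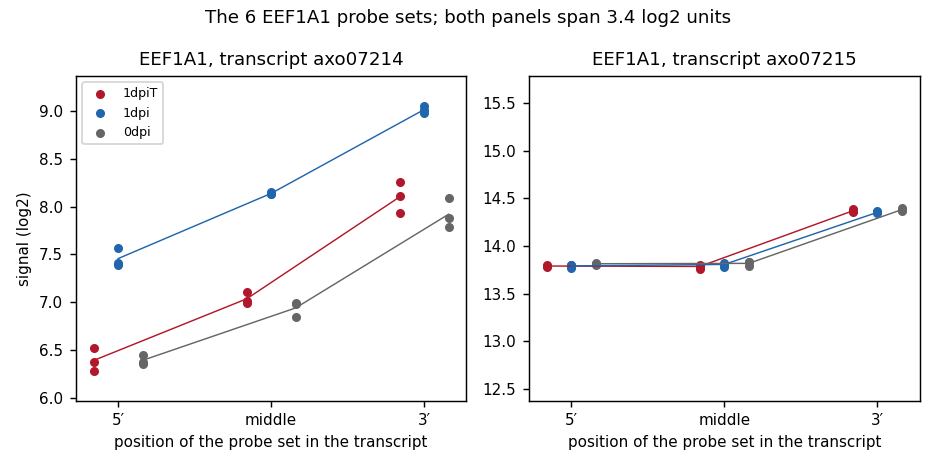
Log2 signal of the EEF1A1 probe sets at the 5′ end, middle and 3′ end of the 2 array transcripts annotated to the gene; points are arrays, lines join group means, and both panels span 3.4 log2 units. On axo07214 the 1dpi arrays lie about 1 unit above those of 1dpiT and 0dpi at every position (differences of -0.92 to -1.10 for 1dpiT minus 1dpi), and on axo07215 all 3 groups lie within 13.76 to 14.40.

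EEF1A2, which replaces EEF1A1 in mature muscle and neurons of mammals, was dim and overlapped between groups, with 5.14, 5.25 and 5.26 in 1dpiT, 5.46, 5.11 and 5.15 in 1dpi, and 5.10, 4.93 and 5.12 in 0dpi. Its difference was -0.02 ± 0.09 for 1dpiT minus 1dpi (adjusted p = 0.85) and 0.19 ± 0.09 for 1dpi minus 0dpi (adjusted p = 0.105). EEF1G, the structural subunit of the exchange factor that reloads EEF1A, was higher in 1dpiT than in 1dpi with all 3 probe sets, by 0.31 ± 0.04 to 0.50 ± 0.06. In the brightest, axo07217-f_s_at, the signals were 13.76, 13.81 and 13.74 in 1dpiT, 13.45, 13.45 and 13.47 in 1dpi, and 13.77, 13.80 and 13.77 in 0dpi. The 1dpi arrays were lowest in each of the 3 EEF1G probe sets. The other subunits of that exchange factor did not show this. The 2 probe sets of EEF1B2, the catalytic subunit, differed by -0.08 ± 0.04 and 0.12 ± 0.05 and the 3 of EEF1D, the second catalytic subunit, by -0.03 to 0.01, and none was called between 1dpiT and 1dpi.

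EEF2, which moves the ribosome by 1 codon, kept to a narrow range, with 13.66, 13.66 and 13.67 in 1dpiT, 13.65, 13.67 and 13.66 in 1dpi, and 13.62, 13.67 and 13.64 in 0dpi. Its difference was 0.00 ± 0.04 for 1dpiT minus 1dpi (adjusted p = 0.941). As with transcript axo07215 of EEF1A1, a difference could be compressed at signals this high. EEF2K, the calcium-dependent kinase that phosphorylates EEF2 and stops it, had 3.92, 3.90 and 4.02 in 1dpiT, 4.65, 4.86 and 4.77 in 1dpi, and 3.94, 4.07 and 4.13 in 0dpi. The 1dpi arrays were the 3 highest, at a low signal. The difference was -0.82 ± 0.07 for 1dpiT minus 1dpi (1.76-fold lower, adjusted p = 4.04e-06) and 0.71 ± 0.07 for 1dpi minus 0dpi (adjusted p = 1.23e-05). The first was -0.17 on the spike-in scale and not called. EEF1E1, a member of the tRNA synthetase complex, and EEFSEC, which delivers selenocysteine, differed by 0.10 ± 0.06 and -0.04 ± 0.10 and were not called.

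The 18 genes with more than 1 probe set hold 52 of the 90 members, and the probe sets of 1 gene often differed. Opposite calls were found for EIF4E in 1dpiT against 1dpi and in 1dpi against 0dpi, for EIF4E2 in 1dpiT against 1dpi, and for EIF4A1 in 1dpi against 0dpi. EEF1A1, EIF3A, EIF3H, EIF4A1, EIF4A2, EIF4B, EIF2B5 and EIF4G2 had called and uncalled probe sets in 1dpiT against 1dpi. All probe sets were called in the same direction there for EEF1G, EIF2AK1, EIF2AK4 and EIF4G1. Of the members, 10 carry an identifier that marks probes shared between transcripts. Taking for each gene the probe set with the highest mean gave 21 genes higher and 8 lower of 56 in 1dpiT against 1dpi, and averaging the probe sets of a gene gave 21 and 9.

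**Figure D4:**
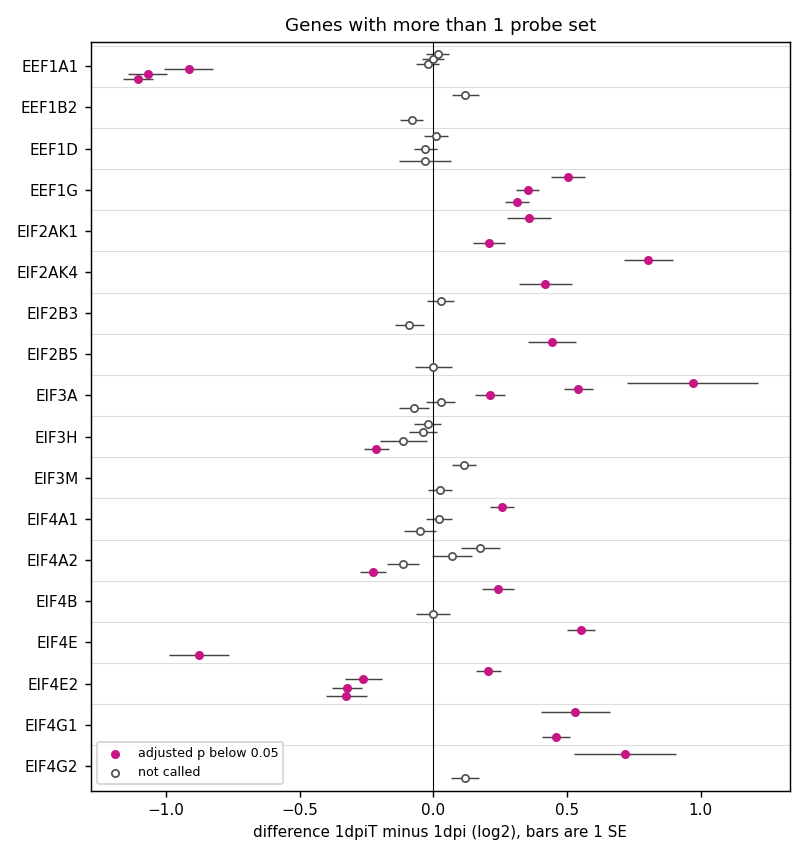
Difference in log2 signal of 1dpiT minus 1dpi on the horizontal axis for each probe set of the 18 genes with more than 1 probe set, listed on the vertical axis; bars are 1 SE (n = 3 arrays per group) and filled points had an adjusted p below 0.05. EIF4E and EIF4E2 have filled points on both sides of 0, and EEF1A1 has 3 near -1 and 3 at 0.

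Genes that act on these factors were described by lists set by role. In the list of EIF2 phosphatase and stress response genes, which follow from EIF2 phosphorylation or undo it, 4 of 13 measured were higher in 1dpiT than in 1dpi and 2 lower. Between 1dpi and 0dpi 1 was higher and 7 lower. DDIT3 (CHOP), a transcription factor of that response, had 10.46, 10.57 and 10.59 in 1dpiT, 9.84, 9.88 and 9.80 in 1dpi, and 10.90, 10.85 and 10.87 in 0dpi. It differed by 0.70 ± 0.05 for 1dpiT minus 1dpi (adjusted p = 1.27e-06), -1.03 ± 0.05 for 1dpi minus 0dpi and -0.34 ± 0.05 for 1dpiT minus 0dpi (adjusted p = 0.0042). ATF5, a related factor, had the same order of groups, with 0.53 ± 0.05 for 1dpiT minus 1dpi and -0.38 ± 0.05 for 1dpiT minus 0dpi. DNAJC3, an inhibitor of EIF2 kinases, was higher in 1dpiT than in 1dpi by 0.59 ± 0.06. ATF4, whose mRNA is translated when EIF2 is phosphorylated, differed by 0.06 ± 0.05 in 1dpiT against 1dpi (adjusted p = 0.305) and by -0.19 ± 0.05 in 1dpi against 0dpi (adjusted p = 0.0077).

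In the list of mTOR and cap-binding control, 4 of 12 measured were higher in 1dpiT than in 1dpi and 6 lower. The kinase RPS6KB1, which mTOR activates, was higher by 1.39 ± 0.09 (2.62-fold, adjusted p = 5.44e-07), with 8.12 to 8.24 in 1dpiT, 6.57 to 6.92 in 1dpi and 8.11 to 8.24 in 0dpi. MKNK2, a kinase of EIF4E, differed by -0.74 ± 0.05, with 9.95 to 10.05 in 1dpiT, 10.72 to 10.73 in 1dpi and 10.49 to 10.52 in 0dpi, so that 1dpiT was below both other groups. DDIT4, an inhibitor of mTOR, differed by -4.12 ± 0.09, with 6.08 to 6.38 in 1dpiT, 10.21 to 10.46 in 1dpi and 7.51 to 7.62 in 0dpi, again with 1dpiT lowest.

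No gene of the remaining lists differed by more than 0.57 in size between 1dpiT and 1dpi. Of 7 termination and recycling factors 4 were higher in 1dpiT than in 1dpi and 2 lower, among them the release factors ETF1 (0.46 ± 0.06) and GSPT1 (0.36 ± 0.04) and the recycling factor DENR (0.25 ± 0.05). Of 9 mitochondrial translation factors 4 were higher and 1 lower, with TSFM at 0.42 ± 0.05, MTIF3 at 0.41 ± 0.05 and MTRF1L at 0.41 ± 0.05. Of 5 partners of the poly-A tail 2 were higher and 1 lower. PABPC4 fell by 0.57 ± 0.08, PAIP2B rose by 0.25 ± 0.05 and PABPN1 rose by 0.21 ± 0.05. Of 6 enzymes that modify EIF5A or EEF2, DPH2 (0.37 ± 0.06) and DPH5 (0.41 ± 0.07), which make diphthamide on EEF2, were higher and 0 were lower. Of the 40 symbols in the cytosolic tRNA synthetase list only 4 were measured, AIMP1, AIMP2, FARSA and FARSB. AIMP2 (0.43 ± 0.05), a member of the synthetase complex but not a synthetase, and FARSA (0.28 ± 0.06) were higher and 0 were lower. On the spike-in scale 0.65 is added to each of these differences, and that of PABPC4 became 0.08.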

How the data were processed

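The authors processed the 9 arrays with RMA in Affymetrix Expression Console, per the submitters' processing notes, and deposited log2 signals for 20080 probe sets. RMA subtracts background, gives every array the same distribution and combines the probes of a set, so a deposited log2 value is relative to the rest of its array. Software versions were not given in the sources used here. Values lay between 2.65 and 14.55, as log2 signals do, and 0 were missing. For each array 150 ng of total RNA had been labelled. An array gives no read depth, so the number of arrays limits the precision, and the tests measure the spread between pools of 10 animals.

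Without the 45 control probe sets, 20035 remained, and dim ones were kept. In limma 3.58.1 (R 4.3.3), 1 linear model over all 9 arrays compared the groups with 2-sided moderated tests and Benjamini-Hochberg adjustment over the 20035 probe sets, and the fit was tested on simulated data. Tables and plots were made in Python 3.11.15 with pandas 2.3.3 and matplotlib 3.10.9. Members were found by the gene symbol of the array's annotation, which gives 1 symbol to 10951 probe sets, and all 56 symbols also stand in the RefSeq gene table of the axolotl. The members and lists were chosen with earlier results of these data known. Array values are given for the 2 probe sets of each role with the smallest p in 1dpiT against 1dpi, the 1 with the smallest p in each other comparison, all probe sets of EIF2S1, EIF4E, EIF4EBP1, EEF1A1, EEF1A2, EEF2 and the EIF2 kinases, and probe sets of 1 gene with opposite calls. Those of other members were added after their values were seen. From each of 7 lists of linked genes up to 3 with the smallest p are named, and ATF4 was added after its value was seen. Marker lists of neurons, ependymoglia, myelin, skeletal muscle, erythrocytes, leukocytes, epithelium and dividing cells were used to describe the tissue. A linked or marker gene with several probe sets was represented by the probe set with the highest mean. The labels name no hybridization or scan batch. Alternatives were a filter on dim probe sets, a variance trend with robust moderation, fits of 2 groups, a replicate block, 3 other scalings, 1 value per gene, the 2-fold rule with an unadjusted p, and leaving out each array.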

Additional observations from a re-analysis of the deposited data

How the results depend on the processing

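Centring on the poly-A spike-ins changed the most. In 1dpiT against 1dpi it gave 84 members higher and 3 lower, in 1dpi against 0dpi 3 higher and 82 lower, and in 1dpiT against 0dpi 6 higher. It adds a constant to every difference, also to those of all other probe sets, whose share called on that scale was not counted. Of 99 printed differences of the members, 23 gained or lost a call in at least 1 of the other alternatives and 76 did not. None of the 99 changed sign there with a call in either fit. Without a call some did when a single array was left out, among them EEF1A2 (-0.087 to 0.085) and EEFSEC (-0.136 to 0.033) in 1dpiT against 1dpi. Centred on the spike-ins, 30 of the 99 changed sign with a call on either scale. For 1dpiT minus 1dpi the turned values were 0.57 for EIF3CL, 0.65 and 0.63 for EEF1A1 (axo07215, 5′ and middle), 0.52 for EIF2B1, 0.60 for EIF4A1 (axo07237-f_at), 0.65 for EIF4B, 0.62 for EEF1A2, 0.42 for EIF4A2, 0.57 for EIF3A (axo09450-f_at), 0.44 for EIF3H, 0.19 for EIF4G3, 0.19 for EIF4EBP1, 0.55 for EIF2AK3, 0.39, 0.32 and 0.33 for EIF4E2, 0.47 for EIF1B, 0.33 for EIF3K, 0.45 for EIF4ENIF1, 0.57 for EEF1B2 (axo18019-f_s_at), 0.61 for EEFSEC and 0.37 for EIF1AD. For 1dpi minus 0dpi they were -0.28 for EIF2B1, -0.38 for EIF4A1 (axo07233-r_at), -0.43 for EIF3E, -0.35 for EEF1A2, -0.29 for EIF4A2 (axo07765-f_at), -0.40 for EIF3F, -0.016 for EIF4EBP1 and -0.32 for EIF2AK3. Of the linked genes named above, PABPC4 turned to 0.08 in 1dpiT against 1dpi. Other list genes counted as lower there turned too, to 0.29 to 0.50. These were PPP1R15B, MRRF, PPP1CB, MLST8, HBS1L, ABCE1, MTOR and PDCD4. DDIT4, MKNK2 and TSC2 stayed negative. The linked genes were not run under the other alternatives. Which scale is nearer to the RNA content of the cells was not tested.

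The 2-fold rule with an unadjusted p left 1 member higher and 2 lower in 1dpiT against 1dpi, 3 higher and 1 lower in 1dpi against 0dpi, and 0 in 1dpiT against 0dpi. Counted in 56 genes, the probe set with the highest mean gave 8 lower in 1dpiT against 1dpi and 11 higher and 19 lower in 1dpi against 0dpi, and averaged probe sets gave 9 lower, 12 higher and 20 lower. In 1dpiT against 0dpi 4 were higher without probe sets below the median signal and 5 with a variance trend, and 1 was lower with that trend, with only the 2 groups or with a second quantile normalization. Without each array in turn, that comparison gave 0 to 1 higher and 0 to 1 lower. In 1dpiT against 1dpi these fits gave 27 to 32 higher and 14 to 16 lower, and 41 of the 46 calls were kept in all of them. In 1dpi against 0dpi they gave 16 to 20 higher and 25 to 32 lower, and 38 of 50 calls were kept.

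With the replicate block 30 members were higher and 15 lower in 1dpiT against 1dpi, 19 higher and 29 lower in 1dpi against 0dpi, and 1 higher in 1dpiT against 0dpi. The deviations of arrays of the same number from their group means correlated at -0.22 to 0.23 over 9 pairs, 1 over 0.1. For arrays of other numbers r was -0.162 to 0.195 over 18 pairs, 6 over 0.1. In groups this small the deviations from a group's own mean are tied to each other. These values therefore cannot show whether arrays of the same number share more than a number.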

Other observations

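Some members were called in 1 of the comparisons with the 1dpi arrays and not in the other, and whether the differences themselves differed in size was not tested. Called higher in 1dpi than in 0dpi, with no call between 1dpiT and 1dpi, were EIF2B1, EIF2AK3, EIF3E (0.11 ± 0.04), EIF3F (0.14 ± 0.04), EIF4A1 (axo07233-r_at) and EIF4A2 (axo07765-f_at, 0.26 ± 0.06). In all 6 the mean of 1dpiT also lay above that of 0dpi, without a call. The way these 6 were chosen makes that likely, so it is not a separate result. EIF3E gave 11.19, 11.19 and 11.20 in 1dpiT, 11.27, 11.28 and 11.27 in 1dpi, and 11.17, 11.17 and 11.13 in 0dpi, and its call was lost whichever of the 9 arrays was left out (highest adjusted p = 0.129). EEF1B2 (axo18020-f_s_at) was the 1 member called lower in 1dpi than in 0dpi with no call between 1dpiT and 1dpi (-0.16 ± 0.05), a call lost without 0dpi array 2 or 3 or 1dpi array 2 or 3 (highest adjusted p = 0.0839). The calls of EIF2AK3 and of this EIF4A1 probe set also rested on single arrays, as given above.

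Between 1dpiT and 0dpi, 9 members (10%) had an unadjusted p below 0.05, a smaller share than the 18.5% of all probe sets. Of these, 3 were probe sets of 1 gene, EIF4A2. EIF4A1 (axo07233-r_at, 0.19 ± 0.05) and EIF4A2 (axo07763-f_at, 0.19 ± 0.05, axo07765-f_at, 0.15 ± 0.06, and axo07766-f_at, 0.24 ± 0.07) had higher means in 1dpiT, and the dim EIF4E probe set axo05866-f_at had a lower one (-0.43 ± 0.11), with adjusted p-values of 0.0556 to 0.223. None of these 5 passed the threshold over all 9 arrays.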
